A study of Mus musculus with 26 samples.

Results

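The COPII coat wraps the vesicles that carry newly made proteins from the endoplasmic reticulum (ER) to the Golgi apparatus. The small GTPase SAR1 starts the coat, SEC23 and SEC24 form its inner layer, and SEC13 with SEC31 form the outer cage. SEC24 is the part that binds cargo, and mammals carry several paralogs of it with different cargo preferences. The genes described here are the 10 that encode this coat: Sec24a, Sec24b, Sec24c, Sec24d, Sec23a, Sec23b, Sar1a, Sar1b, Sec13 and Sec31a. They were taken by symbol from the 55487 genes of the count tables, and all 10 were among the 18050 genes tested. The set was selected on the difference of Sec24d between genotypes, so that difference is given as a description, without a test, and nothing rests on it.

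RNA was measured in frontal cortex of adolescent mice, in 7 animals heterozygous for an Adnp frameshift variant (HET) and 7 wild-type (WT) littermates. Adnp encodes a zinc-finger homeodomain protein of chromatin complexes, and both groups are whole tissue without any other allele or treatment named in the labels. Open chromatin was given as 1 ATAC-seq peak list per genotype, from a series with 3 HET and 3 WT ATAC-seq samples of the same tissue. The labels call 4 HET libraries total RNA and the other 3 HET and all 7 WT libraries polyA RNA, although 1 protocol with poly-A selection is given for all.

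Library totals ran from 32814841 to 48291175 counts, and mitochondrial genes took 4.39% to 5.64% of them. No library had a marker at 0 among 67 markers of 14 brain cell types and regions, so the defining markers of cortical neurons and glia were present throughout. Their sums varied widely: the 6 excitatory neuron markers summed to 217 to 1973 counts scaled to the size of the library (CPM) in HET and 629 to 2504 in WT. The 4 thalamic neuron markers summed to 71.4 to 1136 CPM in HET and 42.0 to 375 in WT. None of the 67 markers was called between genotypes by edgeR at an adjusted p under 0.05, whereas DESeq2 called 3 and limma-voom called 2. Over all genes tested, edgeR called 0.970%, DESeq2 8.38% and limma-voom 10.4%. An unadjusted p under 0.05 was found for 15 of the 67 (22.4%, beside 22.2% of all genes), 3 higher and 12 lower in HET, but the lists differed. By list these were 5 of 5 red blood cell, 4 of 6 excitatory neuron and 3 of 4 thalamic neuron markers. Microglia had 2 of 5, astrocytes 1 of 5, and the other lists 0. Median log2 fold changes were -0.98 for excitatory neuron, -0.65 for red blood cell and 1.38 for thalamic neuron markers, beside 0.02 over all genes. In whole tissue, fewer cells of a type and less RNA per cell cannot be told apart.

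Sec24d, whose product joins SEC23 in the inner layer and binds cargo, lies on chromosome 3 from 123267455 to 123365641 on the forward strand (GRCm38). The stretch just upstream of its start is shown because peaks of both genotypes cover all of it. Beside it stand the promoter of Sec13, the single coat gene without a promoter peak, and the interval between a divergent pair. They are RefSeq promoter sequences (GRCm38.p6), 5′ to 3′ on the gene's strand. Each ends before the Ensembl gene start and the start in the promoter table, and all 10 genes matched an entry. The RefSeq gene record of Sec24d begins further upstream, so by that record its stretch lies within the gene. Capitals mark the GC box GGGCGG and the CCAAT box, both searched on both strands.
Sec24d, chr3:123267246-123267454, forward strand: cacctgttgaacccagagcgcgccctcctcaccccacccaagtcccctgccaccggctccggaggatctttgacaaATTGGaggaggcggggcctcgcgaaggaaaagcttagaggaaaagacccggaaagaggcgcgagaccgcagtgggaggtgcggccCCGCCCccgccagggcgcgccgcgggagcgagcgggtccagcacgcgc
Sec13, chr6:113740744-113740931, reverse strand: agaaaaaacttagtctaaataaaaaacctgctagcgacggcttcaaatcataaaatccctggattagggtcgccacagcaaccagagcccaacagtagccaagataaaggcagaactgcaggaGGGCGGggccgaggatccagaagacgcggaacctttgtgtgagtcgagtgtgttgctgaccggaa
Between Sec24a and Sar1b, chr11:51763635-51763662, forward strand: gcggggcctgggacctgcggactgtcac

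The Sec24d promoter was rich in G and C. Its whole window of 250 bases before to 50 after the start in the RefSeq promoter table held 72.0% G or C and 39 CpG dinucleotides, against medians of 52.7% and 7 over 32851 promoters of the same length. High values were also found for Sec31a (71.0% at 1 start, 42.0% at another), Sec24b (68.3%), Sar1a (66.7%) and Sec23a (64.7%). Sar1b (56.7%) and Sec13 (56.3%) were nearer to the median. Sec24c (51.7%), Sec24a (49.3%) and both starts of Sec23b (50.3% and 39.7%) lay below it. CpG counts were 33 and 4 for the starts of Sec31a, 31 for Sar1a, 26 for Sec24b, 24 for Sec23a and 21 for Sec13. They were 18 for Sec24c, 13 for Sec24a, 13 for Sar1b, and 15 and 2 for the starts of Sec23b. A count above the median of 7 was therefore not particular to Sec24d. The printed stretch of Sec24d held 1 GC box and 1 CCAAT box. Of all promoter windows, 35.7% held a GC box and 37.4% a CCAAT box, so neither match is rare. The site CCGGAAGT of the ETS family, on either strand, was in 3.89% of windows. It was found in the windows of Sec31a (3), Sec24c (2), Sar1a (1) and Sec13 (1).

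An element bound by the ER stress factors ATF6 and XBP1 (TGACGTGG, both strands searched) was found in 2 of the coat genes, Sec24d and Sec23a. It occurred in 0.676% of all windows. The 28 bases around each match are shown for these 2 genes, with the element in capitals.
Sec24d, chr3:123267460-123267487, forward strand: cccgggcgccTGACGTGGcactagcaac
Sec23a, chr12:59011994-59012021, reverse strand: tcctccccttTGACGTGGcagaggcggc
In Sec24d the element began 15 bases after the Ensembl gene start and 26 bases before the start used in the RefSeq promoter table. In Sec23a it began 6 bases after the start in both. The longer ER stress element, a CCAAT box followed after 9 bases by CCACG, was in 0.119% of windows and in none of the 10 genes. These matches are letters in a window, and binding was not measured.

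Sec24d was at 27.2, 24.1, 22.7, 27.8, 25.7, 28.0 and 27.7 CPM in HET libraries 1 to 7. In WT libraries 1 to 7 it was at 12.6, 14.4, 14.9, 17.1, 15.8, 16.0 and 21.0 CPM. The lowest HET library was above the highest WT library, WT 7, and the groups did not overlap. CPM averaged 26.2 ± 2.08 for HET and 16.0 ± 2.63 for WT (SD over 7 libraries), and the log2 fold change was 0.71 with a standard error of 0.095. Over all genes tested, 0.432% had every HET library above every WT library, and 0.587% were called higher in HET by edgeR at an adjusted p under 0.05. Nothing is read from these shares, since this contrast is the one the set was selected on.

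**Figure D1:**
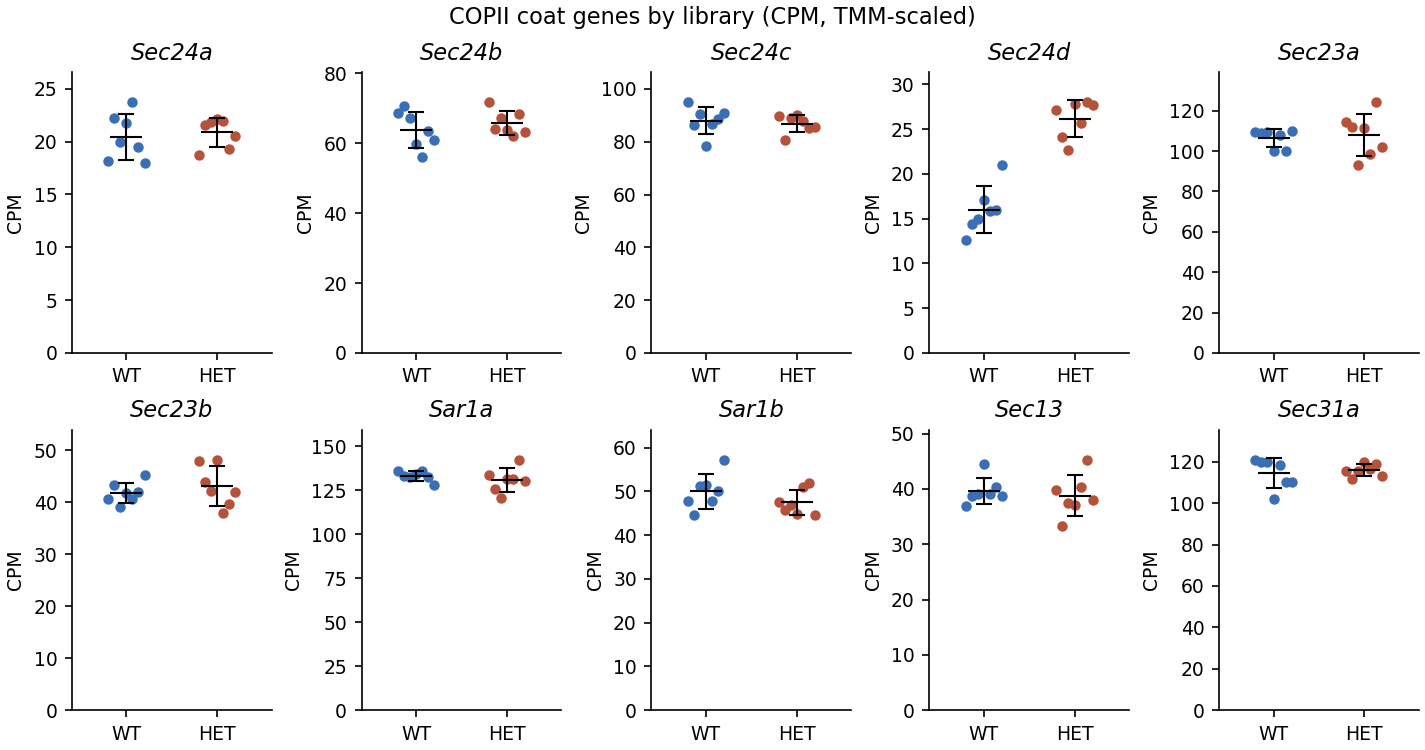
CPM (scaled by TMM, linear axis from 0) of the 10 coat genes, with 1 point per library and the mean and SD of 7 libraries per genotype in black. The 7 HET points of Sec24d lie between 22.7 and 28.0 CPM, above all 7 WT points, and the genotypes overlap in the other 9 panels.

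The values of Sec24d stood beside marker sums that differed between libraries. Thalamic marker sums in WT libraries 1 to 7 were 50.9, 42.0, 67.5, 167, 89.2, 120 and 375 CPM, so WT 7 was highest in these markers and in Sec24d. Sec24d and the thalamic sum had a Pearson correlation of 0.94 over the 7 WT libraries and 0.29 over the 7 HET libraries, on a log2 scale. The libraries of a genotype share tissue, but 4 HET libraries are labelled total RNA and 3 polyA RNA. Whether their preparation differed is not known. In WT the newly formed oligodendrocyte sum had a correlation with Sec24d of 0.92 and in HET of -0.27, and the myelinating oligodendrocyte sum 0.88 and -0.12. The fibroblast and meningeal sum had 0.79 in WT and -0.16 in HET. Over all 14 libraries, with genotype means removed, it had 0.56, next to 0.63 for the thalamic sum. The lists named so far had the highest WT correlations of the 14 lists. In HET the lowest were microglia at -0.68, mural at -0.62 and inhibitory neuron at -0.62. Those lists had -0.36, 0.41 and 0.45 in WT. The highest in HET was choroid plexus at 0.41, with 0.55 in WT. With the excitatory marker mean as a covariate the log2 fold change of Sec24d was 0.63, and with excitatory, striatal and thalamic means together it was 0.63. With the 3 HET libraries labelled polyA RNA against all WT libraries, a comparison chosen after seeing the data, it was 0.76.

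**Figure D2:**
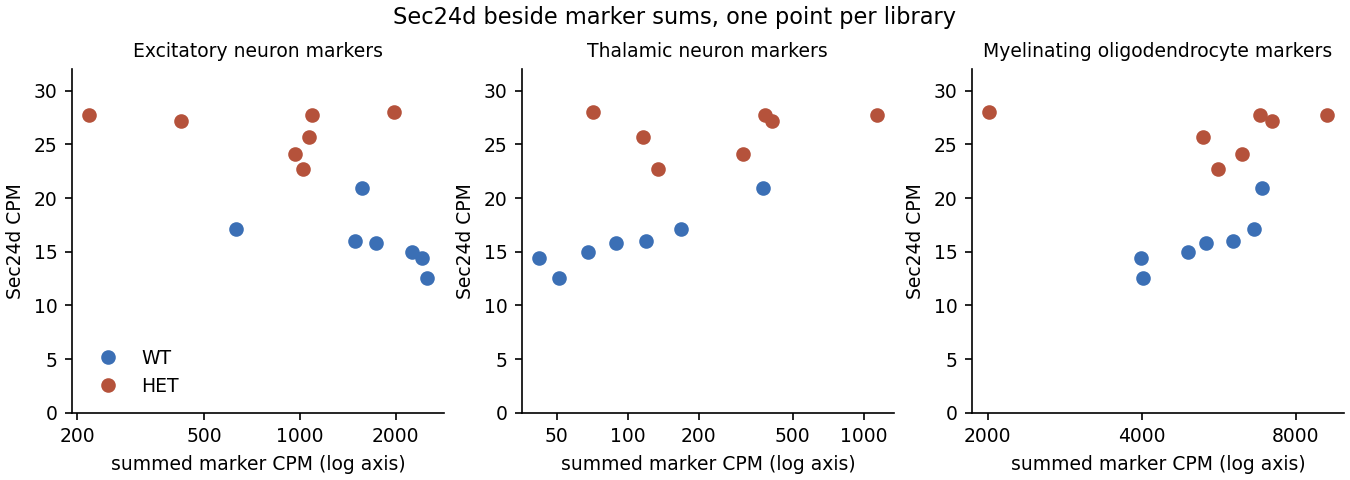
Sec24d in CPM (linear axis) against the summed CPM of 3 marker lists (log axis), with 1 point per library. WT points are higher at larger thalamic and myelinating oligodendrocyte sums. All HET points lie above all WT points in Sec24d, the difference the set was selected on, and nothing is read from it. The ranges of the sums differ: excitatory sums reach 1973 CPM in HET and 2504 in WT, thalamic sums 1136 and 375.

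The other 3 cargo-binding paralogs did not pass the test between genotypes. Sec24a had a median of 21.5 CPM in HET (lowest 18.8, highest 22.1) against 20.0 CPM in WT (18.0 to 23.7), and its log2 fold change was 0.03 (95% interval -0.12 to 0.18). Sec24b, on the same chromosome as Sec24d but 6.62 Mb away, had a median of 64.0 CPM in HET (62.1 to 71.7) and 63.5 CPM in WT (56.2 to 70.6). Its log2 fold change was 0.04, with an interval of -0.08 to 0.16. Sec24c had a median of 87.7 CPM in HET (80.7 to 90.2) against 88.5 CPM in WT (78.3 to 94.9), and its log2 fold change was -0.02 (95% interval -0.12 to 0.08). In all 3 paralogs the ranges of the genotypes overlapped.

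Sec23a and Sec23b encode the inner-layer partner of SEC24, which also activates the GTPase of SAR1. Sec23a had a median of 111 CPM in HET (93.3 to 124) against 109 CPM in WT (100.0 to 109.8), and its log2 fold change was 0.02 (95% interval -0.11 to 0.15). The HET libraries spread more widely for Sec23a, with an SD of 10.6 CPM against 4.44 in WT. Sec23b had a median of 42.1 CPM in HET (38.0 to 48.2) against 41.8 CPM in WT (39.1 to 45.2), and its log2 fold change was 0.05 (95% interval -0.08 to 0.17). Of the exon bases of Sec23a, 8.90% also belong to Gm17529, and 3.40% of those of Sec24c to 6230400D17Rik, where reads overlapping both genes were not counted.

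Sar1a and Sar1b encode the GTPase that starts the coat. Sar1a had a median of 131 CPM in HET (121 to 142) against 133 CPM in WT (127.9 to 136), and its log2 fold change was -0.02 (95% interval -0.12 to 0.07). Sar1b had a median of 46.9 CPM in HET (44.7 to 51.9) and 50.1 CPM in WT (44.6 to 57.3). Its log2 fold change of -0.08 was the lowest of the 10 genes, with an interval of -0.20 to 0.05. Both genes overlapped between genotypes.

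Sec13 and Sec31a encode the outer cage, and SEC13 is also a component of the nuclear pore. Sec13 had a median of 37.9 CPM in HET (33.3 to 45.3) against 39.1 CPM in WT (36.8 to 44.4), and its log2 fold change was -0.03 (95% interval -0.17 to 0.10). Sec31a had a median of 116 CPM in HET (112 to 119.6) against 119 CPM in WT (102.1 to 121), and its log2 fold change was 0.02 (95% interval -0.08 to 0.12). Sec31a was the more even in HET, with an SD of 2.87 CPM against 7.23 in WT.

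Of the 9 coat genes other than Sec24d, edgeR called 0 at an adjusted p under 0.05, where 0.970% of all genes tested were called in either direction. That share over all genes was not stable, at 175 calls in all libraries, 11 without HET 1, 11 without HET 7 and 1672 without WT 4. DESeq2 called 0 of the 9, beside 8.38% of all genes, and limma-voom called 0, beside 10.4%. Of the 9, 0 had an unadjusted p under 0.05, where 22.2% of all genes did. The median log2 fold change of the 9 was 0.02, beside 0.02 over all genes tested. Some of these small differences change sign with the setting: Sec23b was at -0.05 with the excitatory marker mean as a covariate.

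**Figure D3:**
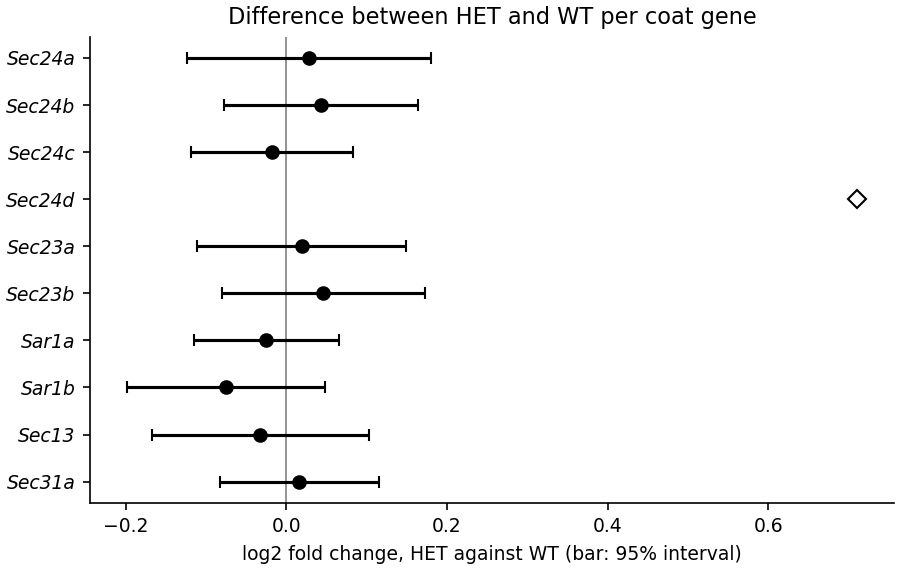
log2 fold change of HET against WT for the 10 coat genes, with 95% intervals from edgeR for 9 of them. The intervals of the 9 include 0, and Sec24d, drawn as an open diamond without an interval because the set was selected on it, stands at 0.71.

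Levels of different genes were compared per exon length, as counts divided by exon length and scaled to a fixed sum in each library (TPM), within the 7 WT libraries. Sar1b had the highest mean at 141 ± 11.3 TPM, followed by Sar1a at 126 ± 4.20 TPM and Sec23a at 78.0 ± 2.35 TPM. Sec31a was at 51.4 ± 2.78 TPM, Sec24c at 49.5 ± 2.16 TPM, Sec13 at 44.2 ± 3.44 TPM and Sec24b at 37.5 ± 2.63 TPM. Sec23b followed at 23.5 ± 1.14 TPM, then Sec24d at 8.96 ± 1.49 TPM and Sec24a at 6.79 ± 0.82 TPM. On this scale the GTPase genes were highest, and Sec24d and Sec24a lowest of the 10.

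Each of the 9 pairs of neighbours in that order was compared by an exact permutation test, which flips the sign of the log2 ratio in each WT library (two-sided, Benjamini-Hochberg over the 9 pairs, smallest raw p possible 0.0156). Sec31a and Sec24c did not pass the threshold (exact permutation test, adjusted p = 0.109), nor did Sec24c and Sec13 (adjusted p = 0.0703). In the 7 HET libraries both pairs passed, with the same gene higher (exact permutation test, adjusted p = 0.0201 and 0.031). Sar1b exceeded Sar1a in 6 of 7 libraries, by 0.16 on the log2 scale (exact permutation test, adjusted p = 0.0402). Sec24d exceeded Sec24a in 7 of 7 libraries, by 0.39 on the log2 scale (exact permutation test, adjusted p = 0.0234). The order depends on length at both ends. Sar1b has 1255 exon bases, and in CPM, without length, it lay below Sar1a, Sec31a, Sec23a, Sec24c and Sec24b. Sec24a has 10683 exon bases and Sec24d 6325, and in CPM Sec24a was the higher in 6 of 7 WT libraries.

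**Figure D4:**
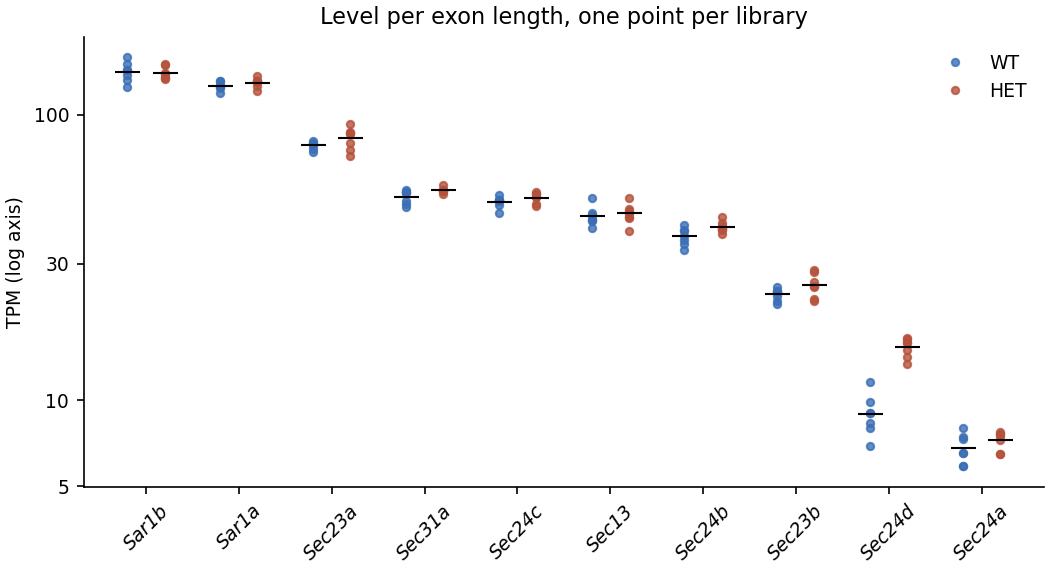
TPM (log axis) of the 10 coat genes in order of their WT mean, with 1 point per library and a bar at each mean. Sar1b and Sar1a lie highest, and Sec24d and Sec24a lowest, in WT.

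Sec24c and Sec24b made up most of the Sec24 transcripts. Of the summed TPM of the 4 paralogs in WT, Sec24c took 48.1% ± 1.63, Sec24b 36.5% ± 2.05, Sec24d 8.73% ± 1.54 and Sec24a 6.62% ± 0.90 (SD, n = 7). In HET, Sec24d took 13.4% ± 0.96, with single libraries between 11.6% and 14.4%, and Sec24c took 44.8% ± 0.98. The Sec24d share in WT ran from 6.60% to 11.2%, so the genotypes did not overlap in it, a consequence of the difference the set was selected on. The 4 paralogs summed to 199.7 ± 5.54 CPM (HET) and 188 ± 6.43 CPM (WT). Within the other families the balance was close in both genotypes: Sec23a was 76.5% ± 1.95 of Sec23 TPM in HET and 76.8% ± 1.14 in WT, and Sar1b was 52.0% ± 1.28 of Sar1 TPM in HET and 52.8% ± 2.35 in WT. Without scaling by length, Sar1b was 27.3% of Sar1 CPM in WT.

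Open chromatin was described from lists that give positions only, without heights, and HET had 30862 peaks against 19272 in WT. A peak within 1 kb of the gene start was listed for 9 of the 10 coat genes in HET, where 63.6% of all genes tested had one. In WT it was listed for 7 of the 10, where 57.2% of all genes tested had one. Sec24a and Sar1b had a promoter peak in the HET list and none in the WT list, which held for 8.08% of all genes tested. For Sec24a this holds at the Ensembl start alone: its RefSeq gene record begins 6473 bases inside the Ensembl gene, and with the starts of the RefSeq promoter table added Sec24a had a promoter peak in the WT list too. By Ensembl these 2 genes lie on opposite strands with 52 bases between their starts, and they share that single peak, chr11:51763571-51763765, which is 195 bases wide and covers the printed interval. Sec13 had no promoter peak in either list. With 1 list per genotype and different list lengths, the difference between lists has no replicate check.

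Sec24d had a promoter peak in both lists, chr3:123267202-123267942 in HET and chr3:123267116-123267689 in WT, and both cover the element shown above. Both lists also held a peak that begins 80840 bases inside the gene. The HET list alone held a peak from 2644 to 2306 bases upstream of the Ensembl start, and another from 30743 to 31166 bases inside the gene. The upstream peak begins 10 bases after the start of the Sec24d gene record in RefSeq, which lies 2654 bases upstream of the Ensembl start and is another site than the start in the promoter table. Within the gene and 5 kb either side, 6 of the other 9 coat genes also had a peak in the HET list alone. Sec24a and Sar1b are among these 6 and share a single peak. Over all genes tested, of any length, 32.4% had a peak in the HET list alone. A peak in the WT list alone was found at 0 of the 10, and at 7.43% of all genes tested. The HET list is the longer one, and these counts were not tested.

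**Figure D5:**
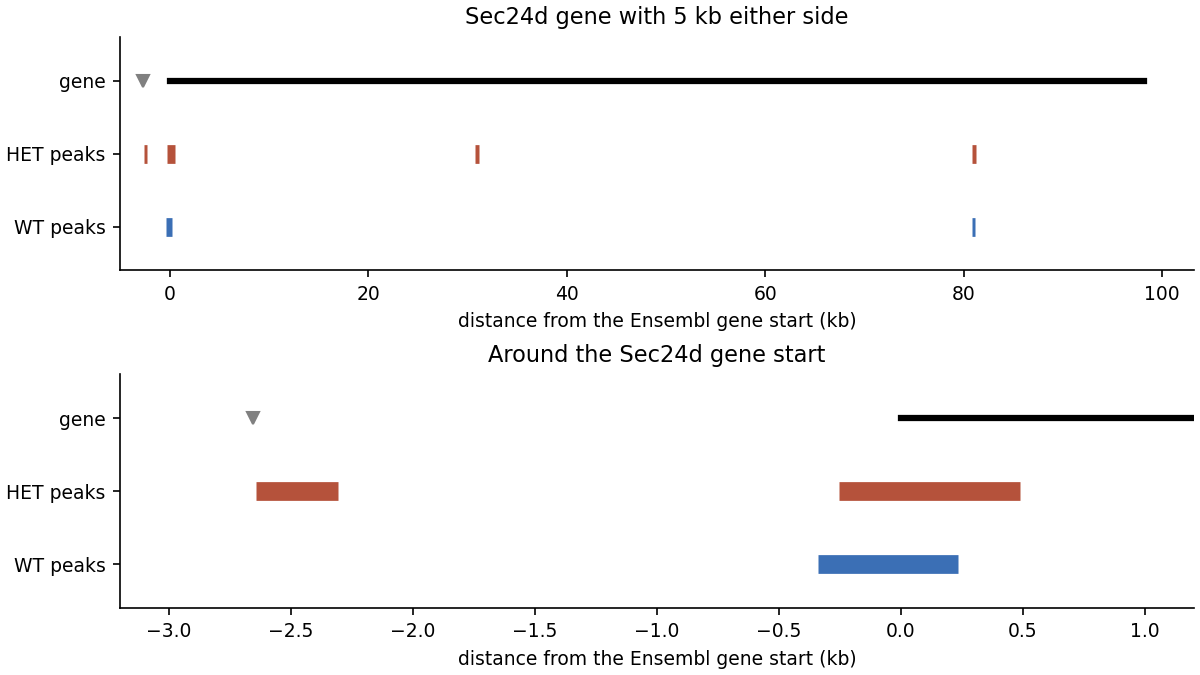
ATAC-seq peaks of the HET and WT lists along Sec24d, in kb from the Ensembl gene start, over the whole gene and around the start. The grey triangle marks the start of the RefSeq gene record. Peaks at the gene start and near 81 kb are in both lists, and 2 further peaks are in the HET list alone.

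Genes within 500 kb of Sec24d were compared for the same contrast: 9 were tested and edgeR called 0, as did DESeq2 and limma-voom. Over all genes tested the shares called were 0.970%, 8.38% and 10.4%, so 0 of 9 is near each share and is not a result about the region. An unadjusted p under 0.05 was found for 3 of the 9 (33.3%, beside 22.2% of all genes), 0 higher and 3 lower in HET. Mettl14, a subunit of the RNA m6A methyltransferase and 2.66 kb from the end of Sec24d, averaged 21.7 ± 2.08 CPM (HET) and 22.3 ± 1.43 CPM (WT), and its log2 fold change was -0.04. Synpo2, an actin-binding gene 31.3 kb from Sec24d on the other side, had a log2 fold change of 1.37 (edgeR adjusted p = 0.298). Its libraries ran from 6.52 to 144 CPM in HET and from 4.79 to 55.7 CPM in WT, and the highest of each genotype, HET 4 and WT 7, were also the highest in thalamic markers. Prss12, which encodes the serine protease neurotrypsin, averaged 9.41 ± 4.93 CPM (HET) and 20.1 ± 8.88 CPM (WT), and its log2 fold change of -1.09 did not pass the adjustment (edgeR adjusted p = 0.145). Pde5a, Usp53 and Ndst3 had log2 fold changes of -0.04, 0.13 and -0.21. The other 3 tested neighbours were 4930447N08Rik at -1.14, 1810037I17Rik at -0.17 and Snhg8 at -0.09. The 3 under an unadjusted p of 0.05 were Prss12, 4930447N08Rik and 1810037I17Rik.

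The wider pathway was described by 6 lists of 95 genes in all. edgeR called 0 of the 95 at an adjusted p under 0.05, DESeq2 called 7 and limma-voom called 7. Over all genes tested edgeR called 0.970%, DESeq2 8.38% and limma-voom 10.4%. With DESeq2 and limma-voom, 7 of 95 is no higher than the share over all genes. An unadjusted p under 0.05 was found for 17 of the 95 (17.9%, beside 22.2% of all genes), 5 higher and 12 lower in HET. By list these were 2 of 11 COPII regulators, 5 of 15 ER-Golgi SNAREs and tethers, 3 of 24 cargo receptors, 1 of 15 COPI coat genes, 4 of 15 ER stress genes and 2 of 15 collagen and matrix genes. The median log2 fold change ran from -0.12 for the ER stress genes to 0.06 for the collagen and matrix genes, beside 0.02 over all genes tested.

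The lowest adjusted p of the 95 was that of Cnih2, a cornichon cargo receptor that also assembles with AMPA receptors. It averaged 196 ± 27.4 CPM (HET) and 249 ± 18.7 CPM (WT), a log2 fold change of -0.35 (edgeR adjusted p = 0.0587). Pef1, a calcium-binding partner of Pdcd6 that acts on SEC31, averaged 49.9 ± 2.39 CPM (HET) and 55.9 ± 1.87 CPM (WT), a log2 fold change of -0.16 (edgeR adjusted p = 0.0684). Col6a2, a collagen VI chain, averaged 38.7 ± 22.1 CPM (HET) and 19.1 ± 2.82 CPM (WT), a log2 fold change of 1.01 (edgeR adjusted p = 0.0716). Tmed9, a p24 cargo receptor, averaged 61.3 ± 6.87 CPM (HET) and 73.8 ± 5.67 CPM (WT), a log2 fold change of -0.27 (edgeR adjusted p = 0.0715). Calr, an ER chaperone, had a log2 fold change of -0.26 (edgeR adjusted p = 0.0856). These 5, the genes with an adjusted p under 0.1, were singled out after their values were seen, and none passed the threshold in the edgeR fit of all libraries.

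The genes most like Sec24d were sought by the correlation of log2 CPM over 14 libraries after the mean of each genotype was removed, among 13538 genes. Fuca1, a lysosomal fucosidase, had a Pearson r of 0.93, and Ndufb11, a subunit of respiratory complex I, 0.89. Pop4, a subunit of RNase P, had 0.88, Apod, a lipocalin, 0.88, and Fam71e1 0.87. These 5 had log2 fold changes between genotypes of -0.11 to 0.34, and none was called. Over the WT libraries alone the 5 most alike were Adarb2, Prkcd, Wscd1, Ndufc1 and Tal1, with r from 0.97 to 0.98, and 0 of the 5 were shared. Among the coat genes the correlation with Sec24d was highest for Sar1b at 0.60 and lowest for Sec31a at -0.46. Over all 45 pairs of coat genes the highest correlation was that of Sec24c with Sec31a at 0.65, and the lowest that of Sec24a with Sec24c at -0.47. The points of these correlations share depth, dissection and marker content.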

How the data were processed

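RNA-seq values are raw counts per gene that the authors deposited, 1 table per library. Exons were summed by gene ID with featureCounts 2.0.1 on Ensembl GRCm38 release 102, ignoring strand (setting 0) and with no option for read pairs, per the file headers, so mates can count separately. The submitters' processing notes name STAR, Trimmomatic and Subread without versions. The ATAC-seq files the authors deposited give peak positions on mm10 without scores, 1 list per genotype. The submitters' processing notes name Bowtie2 2.4.4, SAMtools 1.9 and MACS3 for them, with no caller settings given in the sources used here.

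Of 55487 gene IDs, 55141 matched a symbol. edgeR 4.0.16 (filterByExpr, TMM, robust quasi-likelihood, genotype as the single term, two-sided) tested 18050 genes, with Benjamini-Hochberg adjustment and a threshold of 0.05. Log2 CPM used a prior count of 2. TPM came from counts and exon length and is not scaled by TMM, so it served for levels within a library. Errors are SD over 7 libraries. The design text gives 7 mice per genotype, and no 2 libraries agreed within sampling noise (lowest chi-square per degree of freedom 9.52 over 91 pairs). Likeness was limited to genes whose log2 CPM averaged 1 or more. The fit was tested on simulated data, and the order test and correlations on small constructed cases. Alternatives used DESeq2 1.42.0, limma 3.58.1 and sva 3.50.0, in R 4.3.3.

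Named genes were the 10 coat genes, up to 4 called genes per pathway list (none was called, and those named were singled out later), genes within 500 kb of Sec24d and the 5 genes most like Sec24d without predicted genes. The members and all lists were chosen with earlier results of these data known. Not analysed here were the Hi-C libraries and 2 ATAC-seq libraries, PAT and Control.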

Additional observations from a re-analysis of the deposited data

How the results depend on the processing

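The log2 fold change of Sec24d lay between 0.59 (1 surrogate variable) and 0.76 (polyA-labelled libraries alone, chosen after seeing the data). It lay between 0.66 and 0.79 with each of the 14 libraries left out in turn. The set was selected on this difference, and every HET library was above every WT library. With a library left out, a kept direction was therefore fixed in advance, and nothing is read from it. With the replicate number as a block the log2 fold change of Sec24d was 0.72. Correlations of same-numbered deviations ran from -0.28 to 0.33. Differently numbered libraries were not compared, so these values cannot decide whether the numbers pair the samples. The block lowered the calls over all genes from 175 to 10. None of the other 9 coat genes, nor any gene near Sec24d, was called in any setting. Calls over all genes ran from 4 of 18971 (polyA-labelled libraries alone) to 1886 of 18050 (limma-voom), so few calls were to be had in some settings.

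Signs of uncalled coat genes changed in some settings, and the cause was not tested. Sec23b was at -0.048 with the excitatory mean, -0.049 with 3 marker means, -0.047 with 1 surrogate variable and -0.071 in polyA-labelled libraries alone. Sec24c was at 0.0095 with 1 surrogate variable. With limma-voom Sec23a was at -0.018 and Sec31a at -0.0011, and in polyA-labelled libraries alone Sar1a was at 0.013 and Sec13 at 0.052. With a library left out, ranges were -0.074 to 0.0011 for Sec13, -0.017 to 0.052 for Sec23a, -0.044 to 0.0012 for Sec24c, -0.0095 to 0.030 for Sec31a and -0.00039 to 0.065 for Sec24a.

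Called pathway genes, of 95, numbered 0 in the edgeR fit, 7 with DESeq2, 7 with limma-voom and 5 at an adjusted p under 0.1. Over all genes edgeR called 0.970%, DESeq2 8.38% and limma-voom 10.4%, and the share at 0.1 was not counted. With a library left out the called pathway genes ranged from 0 to 6, with 6 without HET 6 and 6 without WT 4. Calls over all genes also rose there, to 1110 of 18233 without HET 6 and 1672 of 18223 without WT 4. The 5 genes most like Sec24d shared 0 with those of the WT libraries alone. Neighbouring pairs of the WT order past the threshold numbered 7 of 9, and 6 to 7 with a WT library left out. Promoter peaks were listed for 8 to 9 coat genes in HET and 7 to 8 in WT over the windows and start sites tried, Sec24a being the gene added in WT by RefSeq starts.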
